A study of Rattus norvegicus with 24 samples.

Results

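The genes described here are 9 immediate early genes induced by neuronal activity, chosen by name and looked up by Ensembl identifier in a table of 17323 genes. They were Fos (ENSRNOG00000008015), Fosb (ENSRNOG00000046667), Junb (ENSRNOG00000042838), Egr1 (ENSRNOG00000019422), Egr2 (ENSRNOG00000000640), Arc (ENSRNOG00000043465), Npas4 (ENSRNOG00000020009), Nr4a1 (ENSRNOG00000007607) and Dusp1 (ENSRNOG00000003977). All 9 identifiers were present, and all 9 genes were among the 16289 that passed a filter on low counts and were tested. Messenger RNA was sequenced in 24 libraries from 8 male F1 rats of the inbred strains F344 (Fischer) and BN (Brown Norway). Each rat gave 1 library from hand-dissected ventral tegmental area (VTA) and 1 each from the core and shell divisions of the nucleus accumbens (NAc). The study used them to compare reciprocal crosses after nicotine self-administration (SA). Cross A, with an F344 father and a BN mother, held rats 1, 2, 11 and 15. Cross B, with a BN father and an F344 mother, held rats 3, 4, 13 and 16. By the sample labels and the series' design text, and not by the methods given for SA, on each of 4 days rats 1, 2, 3 and 4 had been injected with nicotine at 0.4 mg/kg and rats 11, 13, 15 and 16 with saline at 1.0 ml/kg. Nicotine was then infused intravenously in all 8 rats for 6 days, each day in 10 infusions of 30 µg/kg, and tissue was taken on day 15. By the study's methods this was 3 days after the last session of SA. The levels below are those of that time and not of the sessions or the injections. No library therefore came from a rat without intravenous nicotine. By the labels the nicotine-injected rats of cross A were in preparation batch E, those of cross B in batch F and the saline-injected rats in batch G, except that the VTA libraries of rats 2 and 16 were in batch L. Within the nicotine-injected rats the cross and the batch cannot be told apart in the NAc.

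Immediate early genes are transcribed within minutes of synaptic activity or growth factor signaling, without the need for new protein synthesis, through kinases that act on the factors CREB and SRF bound at their promoters. Fos, Fosb and Junb encode subunits of the AP-1 transcription factor, Egr1 and Egr2 zinc finger factors, Npas4 a factor that responds selectively to calcium entry, and Nr4a1 an orphan nuclear receptor. Arc encodes a protein that acts at synapses on glutamate receptor trafficking, and Dusp1 a phosphatase that inactivates MAP kinases and so limits the same signal. In the nucleus accumbens and the VTA these genes are widely used as markers of recent neuronal activity and of exposure to addictive drugs, and their transcripts are short-lived.

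The promoters of these genes are known for sites of CREB and SRF, so the 250 bases before the annotated transcription start were read from RefSeq sequences of the rat build GRCr8, in which 7 of the 9 genes were matched by symbol. Fos and Arc had no match by symbol in the set of promoters used. The strands were searched for the cyclic AMP response element TGACGTCA (CRE), for its core TGACG, read as CGTCA on the other strand and counted again inside a CRE, and for the CArG box, the binding motif of SRF. Of the 7 promoters 5 held a CRE or its core, 1 held a whole CRE and 2 held CArG boxes. Of all 33469 promoters in the same table, 18.2% held the core, 1.59% the whole CRE and 1.5% a CArG box in a window of this length. The 5 promoters with a match are shown because they place the sites of activity-responsive factors relative to each start. They are printed 5′ to 3′ on the strand of the gene, the last base just before the start, with the matched letters in capitals.
Egr1, GRCr8 chr18:26736828-26737077, plus strand: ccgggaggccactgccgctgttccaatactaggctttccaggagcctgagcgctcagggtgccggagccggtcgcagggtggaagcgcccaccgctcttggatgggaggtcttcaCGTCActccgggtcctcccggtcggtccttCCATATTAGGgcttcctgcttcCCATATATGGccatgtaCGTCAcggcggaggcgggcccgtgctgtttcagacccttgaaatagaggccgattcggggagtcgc
Egr2, GRCr8 chr20:21054442-21054691, minus strand: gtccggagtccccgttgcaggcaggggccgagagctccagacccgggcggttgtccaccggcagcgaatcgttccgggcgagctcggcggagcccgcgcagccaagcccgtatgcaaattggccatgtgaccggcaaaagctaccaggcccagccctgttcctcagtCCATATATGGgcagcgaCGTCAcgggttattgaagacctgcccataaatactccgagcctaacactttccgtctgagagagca
Junb, GRCr8 chr19:40080876-40081125, plus strand: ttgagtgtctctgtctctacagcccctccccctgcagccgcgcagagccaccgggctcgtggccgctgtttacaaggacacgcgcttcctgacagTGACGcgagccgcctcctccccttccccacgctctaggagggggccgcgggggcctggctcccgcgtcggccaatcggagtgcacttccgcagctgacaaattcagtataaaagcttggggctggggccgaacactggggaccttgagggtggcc
Nr4a1, GRCr8 chr7:134259888-134260137, plus strand: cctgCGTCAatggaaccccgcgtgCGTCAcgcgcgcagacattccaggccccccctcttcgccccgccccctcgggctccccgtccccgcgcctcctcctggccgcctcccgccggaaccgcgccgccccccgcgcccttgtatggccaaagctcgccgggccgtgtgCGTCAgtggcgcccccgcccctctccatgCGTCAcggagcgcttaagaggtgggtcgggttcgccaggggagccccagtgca
Dusp1, GRCr8 chr10:17184603-17184852, plus strand: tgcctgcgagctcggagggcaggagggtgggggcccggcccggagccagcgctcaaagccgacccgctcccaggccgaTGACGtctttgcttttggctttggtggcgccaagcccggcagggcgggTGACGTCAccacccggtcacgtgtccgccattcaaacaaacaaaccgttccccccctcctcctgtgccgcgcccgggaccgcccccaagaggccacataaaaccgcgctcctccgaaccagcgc

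Egr1 held CArG boxes 105 to 96 and 83 to 74 bases before its start and CRE cores 135 to 131 and 66 to 62 bases before it. Egr2, its relative, held a CArG box and a CRE core at the same distances as the proximal pair of Egr1, 83 to 74 and 66 to 62 bases before its start. Nr4a1 held 4 CRE cores, the nearest 53 to 49 bases before its start, and no CArG box in this window. Dusp1 held the only whole CRE among these promoters, 124 to 117 bases before its start, and a further core at 172 to 168. Junb held 1 core, 155 to 151 bases before its start, and the windows of Fosb and Npas4 held none of the letters searched. These matches describe sequence and not binding.

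Depth ranged from 17563458 to 24405856 estimated counts per library, and a level is given here as CPM (counts per 1000000 counts of the library) scaled with TMM normalization factors. In 7 of the 8 VTA libraries the summed level of the dopamine neuron markers Slc6a3, Slc18a2 and Ddc was 1045 to 1971 CPM. In the library labelled VTA of rat 2 (cross A, nicotine-injected) it was 44.5 CPM, against 11.4 to 16.3 CPM in the NAc core and 12.9 to 18.7 CPM in the NAc shell. Slc6a3, the dopamine transporter that defines these neurons, was at 20.9 CPM in that library against 701 to 1313 CPM in the others. Its summed level of 6 markers of striatal projection neurons was 236 CPM, within the 218 to 339 CPM of the other VTA libraries and far below the 1631 to 3608 CPM of the NAc libraries. Single markers departed from the VTA ranges in both directions, Drd2 at 16.3 CPM against 83.2 to 141.7 CPM and Pdyn at 50.1 CPM against 8.59 to 25.7 CPM, with Tac1 and Drd1 also above theirs. Its oligodendrocyte marker sum of 21530 CPM was just under the 24022 to 48747 CPM of the other VTA libraries. Its astrocyte marker sum was 2066 CPM against 3417 to 4649 CPM in the other VTA libraries and 1728 to 2292 CPM in the NAc shell, and its microglia marker sum was 84.7 CPM against 147 to 184 CPM. That library therefore goes against its label in dopamine neuron content, and the results on the VTA are given with and without it.

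The 9 genes together summed to a median of 290 CPM in the NAc core (214.5 to 403.7), 232 CPM in the NAc shell (177 to 298.8) and 67.7 CPM in the 7 VTA libraries with dopamine neuron markers (63.2 to 77.2). In the library labelled VTA of rat 2 they summed to 310.6 CPM, inside the range of the NAc core. In bulk tissue, fewer cells of a type and less RNA per cell cannot be told apart.

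Among the AP-1 genes, Fosb, whose truncated product is known to accumulate with repeated drug exposure, had a lowest, median and highest level of 10.7, 12.9 and 16.3 CPM in the NAc core, 7.44, 9.87 and 12.6 CPM in the shell and 0.44, 1.24 and 2.22 CPM in the 7 VTA libraries. The NAc and the VTA were thus well apart in these libraries. The library labelled VTA of rat 2, at 5.90 CPM, lay between them. Junb, which encodes a partner of the Fos proteins, ranged around a median of 37.1 CPM in the core (27.2 to 46.9), 37.5 CPM in the shell (29.5 to 43.6) and 10.5 CPM in the 7 VTA libraries (10.0 to 13.9). It stood at 41.0 CPM in the library labelled VTA of rat 2. Fos was low in every region, with medians of 1.90 CPM in the core (0.80 to 3.74), 2.25 CPM in the shell (1.89 to 3.10) and 2.37 CPM in the 7 VTA libraries (1.31 to 2.88). Its ranges overlapped among all 3 regions. The library labelled VTA of rat 2 held 14.8 CPM of Fos, the highest of all 24 libraries, from 265 counts, where the libraries of the NAc core held 16 to 70 counts.

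Of the zinc finger genes, Egr1 had medians of 110 CPM in the core (86.1 to 141.9) and 87.1 CPM in the shell (72.2 to 109.6), against 9.09 CPM in the 7 VTA libraries (8.21 to 10.9). The 7 VTA libraries lay close together, with a mean of 9.28 CPM ± 1.04 (SD, n = 7), and that of rat 2 held 78.6 CPM, a level within the NAc range. Egr2 was low throughout, with medians of 2.99 CPM in the core (1.72 to 4.36), 1.90 CPM in the shell (1.04 to 2.83) and 1.24 CPM in the 7 VTA libraries (0.05 to 1.97). The lowest of these was a single count in rat 3, and the 7 libraries held 1 to 48 counts of Egr2. The part of small counts in this spread was not tested. In the library labelled VTA of rat 2 Egr2 stood at 1.89 CPM, within the range of the other VTA libraries.

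Npas4 had medians of 6.09 CPM in the core (4.58 to 14.4), 5.06 CPM in the shell (2.91 to 14.2) and 1.27 CPM in the 7 VTA libraries (0.74 to 2.83). Its highest NAc values both came from rat 1, and no other NAc library exceeded 7.67 CPM. Nr4a1 had medians of 35.3 CPM in the core (23.4 to 59.5), 30.7 CPM in the shell (17.8 to 47.5) and 8.50 CPM in the 7 VTA libraries (6.75 to 11.8). The library labelled VTA of rat 2 held 11.5 CPM of Npas4 and 38.7 CPM of Nr4a1, both within the NAc ranges.

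Arc, the synaptic effector of the group, had medians of 48.6 CPM in the core (28.1 to 84.3), 39.2 CPM in the shell (27.5 to 52.0) and 8.32 CPM in the 7 VTA libraries (5.73 to 10.5). The library labelled VTA of rat 2 held 85.3 CPM of Arc from 1532 counts, 10.3 times the median of the 7 VTA libraries and the highest value of Arc in the series. Dusp1, the phosphatase, was lowest in the shell, with medians of 26.9 CPM in the core (23 to 33.7), 19.9 CPM in the shell (13.2 to 24.7) and 25.5 CPM in the 7 VTA libraries (22.2 to 29.8). For Dusp1 the library labelled VTA of rat 2, at 32.9 CPM, was 1.29 times the median of those 7, the smallest such ratio among the 9 genes.

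**Figure D1:**
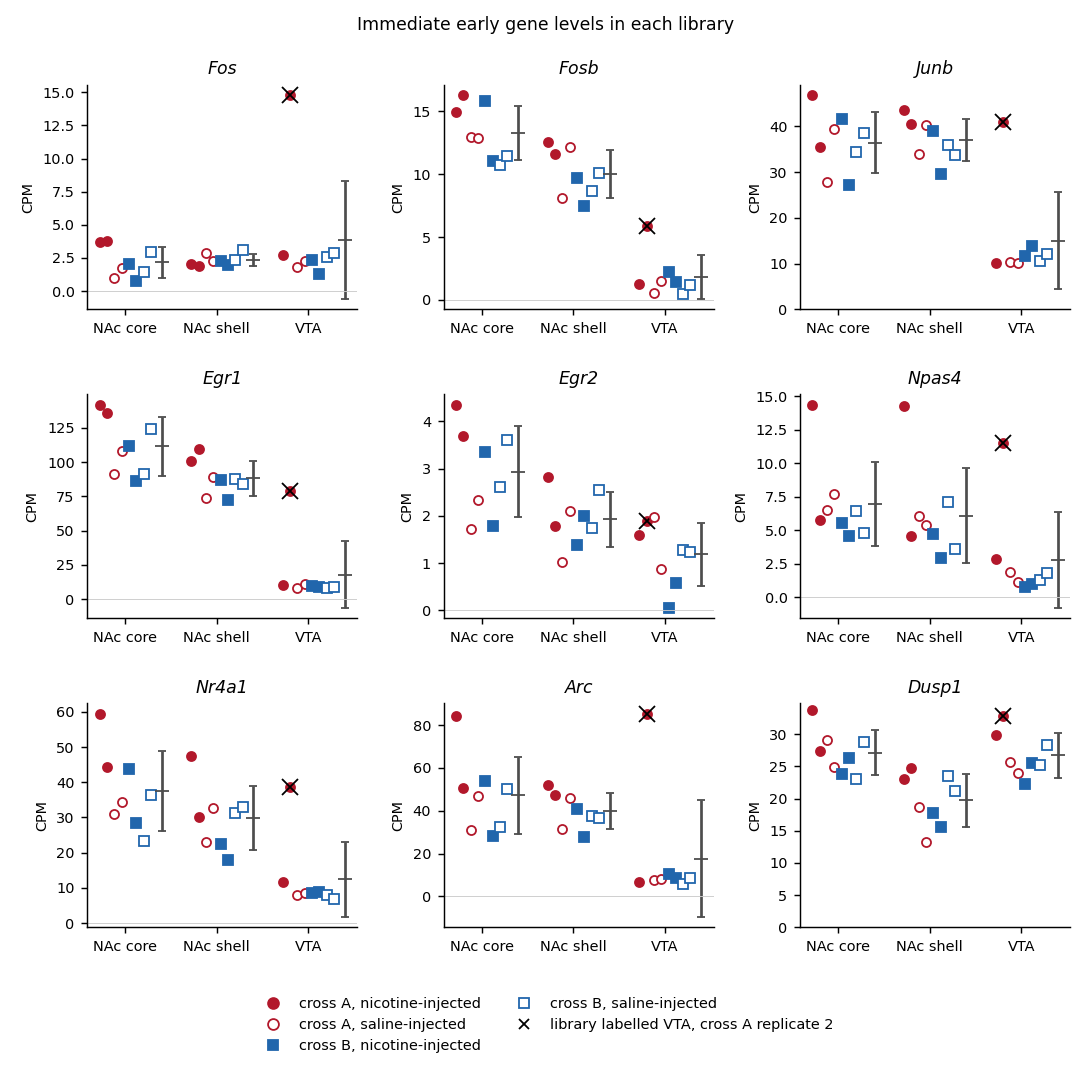
Level of each of the 9 genes (CPM, vertical axis, separate scale for each gene) in each library of the NAc core, NAc shell and VTA; points are rats, the bars give mean ± SD over the 8 rats and the cross marks the library labelled VTA of rat 2. Outside that library Fosb, Junb, Egr1, Arc, Npas4 and Nr4a1 lie lower in the VTA than in the NAc, while the levels of Fos and Dusp1 overlap between NAc core and VTA.

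The first comparison asked how the genes differ between regions of the same rats. Between the NAc core and the NAc shell, 3 of the 9 genes were called at an adjusted p under 0.05, all higher in the core, where 15.1% of all tested genes were called and 7.88% were called and higher in the core. Dusp1 was higher in the core by a log2 fold change of 0.46 ± 0.11 (SE; 1.37-fold; edgeR quasi-likelihood adjusted p = 0.00818; higher in 7 of 8 rats). Fosb was higher by 0.40 ± 0.12 (1.32-fold, adjusted p = 0.0292) and Egr1 by 0.34 ± 0.10 (1.26-fold, adjusted p = 0.034), both in 8 of 8 rats. The core and shell ranges of all 3 genes overlapped. Without pairing by rat, the calls of Fosb and Egr1 were sensitive to single rats. Fosb was not called without rat 2, 3 or 11. Egr1 was not called without rat 1, 3, 15 or 16, nor with scaling by total counts alone. With rat as a replicate block, which pairs the regions of a rat, both were called. Egr1 was then at 0.33 ± 0.05 (edgeR adjusted p = 0.000481) and Fosb at 0.41 ± 0.09 (edgeR adjusted p = 0.00677). Egr2 had a log2 fold change of 0.60 ± 0.23 (adjusted p = 0.0836), and with rat as a replicate block it was called (0.59 ± 0.18, adjusted p = 0.041).

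The other 5 genes did not pass the test between core and shell. The log2 fold change (core minus shell) was 0.34 ± 0.18 for Nr4a1, 0.23 ± 0.18 for Arc, 0.19 ± 0.28 for Npas4, -0.03 ± 0.10 for Junb and -0.11 ± 0.27 for Fos, with adjusted p of 0.253 to 0.895. Over the 9 genes the median was 0.34, against -0.01 over all tested genes, with 7 of 9 positive. Of 6 markers of striatal projection neurons 3 were called higher in the core (Ppp1r1b by 0.59, Drd2 by 0.56 and Adora2a by 0.53 on the log2 scale) and none lower. Drd1, Pdyn and Tac1 were not called. Their medians in core and shell were 104 and 95.2 CPM for Drd1, 363 and 310 CPM for Pdyn and 215 and 217 CPM for Tac1. The summed level of all 6 was 2019 to 3608 CPM in the core and 1631 to 2732 CPM in the shell. Of the other marker lists, the astrocyte gene Slc1a2 (0.28) and the microglial gene Csf1r (0.15) were called higher in the core, the astrocyte gene Gfap (-0.36) and the dopamine neuron gene Slc18a2 (-2.10) lower, and no oligodendrocyte or endothelial marker was called. The part of these markers in the differences of the immediate early genes was not tested.

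Between the NAc core and the VTA, 7 of the 9 genes were called, all higher in the core, where 61.8% of all tested genes were called and 30.7% were called and higher in the core. With all 8 VTA libraries the log2 fold change was 2.91 ± 0.38 for Fosb (7.51-fold, edgeR adjusted p = 4.04e-06), 2.66 ± 0.46 for Egr1 (6.31-fold, 7.6e-05), 1.62 ± 0.33 for Nr4a1 (3.08-fold) and 1.30 ± 0.27 for Junb (2.47-fold). Egr2 was higher by 1.31 ± 0.39 (adjusted p = 0.00777), Npas4 by 1.35 ± 0.49 (0.0228) and Arc by 1.44 ± 0.52 (0.0238). The calls of Arc and Npas4 were lost when any of several rats was left out with all its libraries, rats 1, 3, 15 or 16 for Arc and rats 1, 11, 13 or 15 for Npas4. With rat as a replicate block and all libraries Arc was at 2.12 ± 0.39 (edgeR adjusted p = 0.000693). Npas4 was then at 1.87 ± 0.39 (edgeR adjusted p = 0.00176). Fos (-0.80 ± 0.48, adjusted p = 0.154) and Dusp1 (0.04 ± 0.09, adjusted p = 0.742) were not called.

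Without the library labelled VTA of rat 2 the same 7 genes were called higher in the core, against 65.7% of all tested genes called in either direction, and the differences were larger. Egr1 was then 12.1-fold higher in the core (log2 3.60 ± 0.12, edgeR adjusted p = 8.66e-14), Fosb 11.0-fold (3.46 ± 0.25) and Arc 5.95-fold (2.57 ± 0.21, 8.48e-09). Npas4 was 4.58-fold higher, Nr4a1 4.40-fold, Junb 3.28-fold and Egr2 2.69-fold (1.43 ± 0.40, 0.00457). For 6 genes, Fosb, Junb, Egr1, Arc, Npas4 and Nr4a1, the ranges of the core and of these 7 VTA libraries did not overlap, as was so for 32.9% of all tested genes. The log2 fold change of Fos moved from -0.80 to -0.06 ± 0.31 (adjusted p = 0.883), and that of Dusp1 was 0.08 ± 0.09 (adjusted p = 0.395).

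Between the NAc shell and the VTA, 5 genes were called, 4 of them higher in the shell, where 59.8% of all tested genes were called and 29.3% were called and higher in the shell. Fosb was higher in the shell by 2.49 ± 0.39 (5.61-fold, edgeR adjusted p = 2.74e-05), Egr1 by 2.30 ± 0.45 (4.94-fold), Junb by 1.31 ± 0.26 (2.49-fold) and Nr4a1 by 1.27 ± 0.33 (2.41-fold). Dusp1 was the exception, 1.35-fold higher in the VTA (log2, shell minus VTA, -0.44 ± 0.12, adjusted p = 0.00401) and higher there in 8 of 8 rats. Arc (1.19 ± 0.50, adjusted p = 0.0508) and Npas4 (1.14 ± 0.51, adjusted p = 0.0616) missed the threshold. Both were called with rat as a replicate block (Arc 1.92 ± 0.36, adjusted p = 0.00091, Npas4 1.61 ± 0.41, adjusted p = 0.00617). Egr2 was at 0.69 ± 0.39 (adjusted p = 0.134) and Fos at -0.71 ± 0.41 (adjusted p = 0.148).

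Without the library labelled VTA of rat 2, 7 genes were called between shell and VTA, against 63.9% of all tested genes. Egr1 was 9.35-fold higher in the shell (3.22 ± 0.10, edgeR adjusted p = 3.65e-14), Fosb 8.11-fold, Arc 4.92-fold (2.30 ± 0.14, 3.04e-10), Npas4 3.92-fold, Nr4a1 3.40-fold and Junb 3.26-fold. Dusp1 stayed lower in the shell (-0.41 ± 0.12, adjusted p = 0.00506), and Egr2 (0.80 ± 0.40, adjusted p = 0.0865) and Fos (0.02 ± 0.18, adjusted p = 0.934) were not called. The ranges of the 6 genes just listed as higher in the shell did not overlap between the shell and the 7 VTA libraries, as was so for 33.1% of all tested genes. The cell makeup of the dissected tissue differed as well between the NAc and the VTA: 5 of 6 striatal neuron markers were called higher in the shell than in the VTA and 6 of 6 in the core, while 3 of 3 dopamine neuron and 4 of 4 oligodendrocyte markers were called lower in each. Of 5 astrocyte markers 1 was higher and 3 lower in the shell, and 2 were higher and 3 lower in the core. Of 2 microglial markers 2 were lower in the shell and 1 in the core, and the 1 endothelial marker was lower in the shell. Without the library labelled VTA of rat 2 these counts were the same, except that 6 of 6 striatal markers were higher in the shell too and that the 2 microglial and the 1 endothelial marker were also lower in the core. Their part in these differences was not tested.

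**Figure D2:**
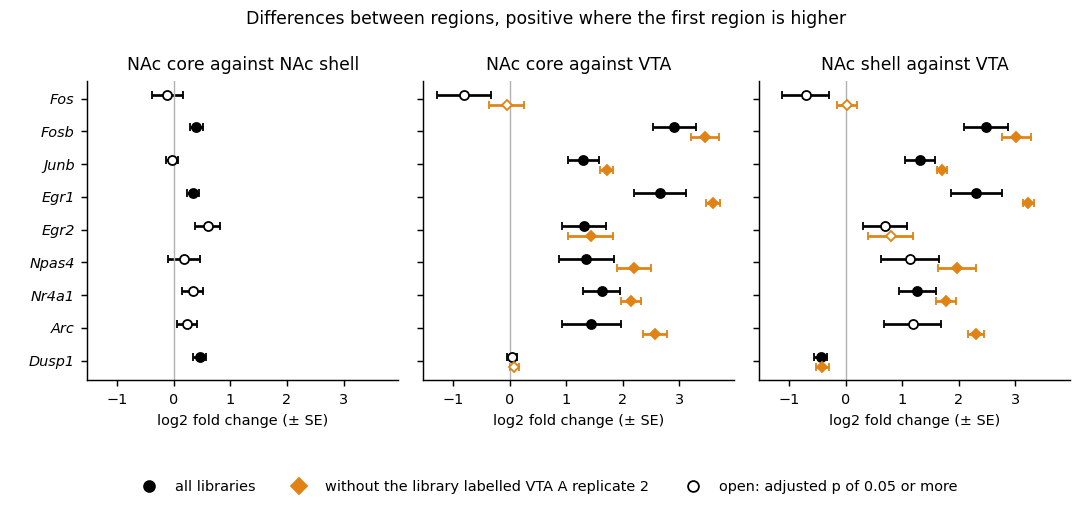
Log2 fold change ± SE of the 9 genes between pairs of regions (horizontal axis, first region minus second), with all libraries (black) and without the library labelled VTA of rat 2 (orange); open symbols have an adjusted p of 0.05 or above. Leaving out that library moves Egr1 from 2.66 to 3.60 and Arc from 1.44 to 2.57 in the panel of NAc core against VTA.

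The wider set of activity-regulated genes was examined with 31 further genes in lists of transcription factors, feedback inhibitors, effectors and upstream kinases. Their names came from tables of the study that list genes at p under 0.05 in some comparison, so the lists are not an even sample of the pathway. Between core and shell 7 of the 31 were called higher in the core and 2 lower, where 15.1% of all tested genes were called and 7.88% were called and higher, and their median log2 fold change was 0.06. Of 10 effectors 4 were higher, led by Nptx2, a secreted organizer of glutamate receptors (0.79 ± 0.09, edgeR adjusted p = 7.41e-06), with Rgs2 (0.34 ± 0.08), Arl4d (0.42 ± 0.11) and Homer1 (0.43 ± 0.14). Of 9 transcription factors 1 was higher and 1 lower: Nr4a2, the close relative of Nr4a1, at 43.2 CPM in the core and 7.16 CPM in the shell (2.59 ± 0.22, adjusted p = 1.53e-07), and Klf4 (-0.43 ± 0.11, adjusted p = 0.0122). Of 8 feedback inhibitors, genes that limit MAP kinase signaling or Egr activity, Dusp6 was higher (0.40 ± 0.11) and Dusp4 lower (-0.40 ± 0.11). These relatives of Dusp1 thus moved in opposite directions. Of 4 kinases Camk4 was higher (1.12 ± 0.10).

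Between core and VTA 15 of the 31 were called higher in the core and 4 lower (median 0.33), where 61.8% of all tested genes were called. Between shell and VTA 13 were called higher and 5 lower (median 0.08), where 59.8% were called. Of all tested genes 30.7% were called and higher in the core than in the VTA and 29.3% in the shell. Without the library labelled VTA of rat 2 the counts were 18 higher and 5 lower for core against VTA and 14 higher and 6 lower for shell against VTA, where 65.7% and 63.9% of all tested genes were called. Egr3, a relative of Egr1, was higher in the core than in the VTA by 2.99 ± 0.62 (edgeR adjusted p = 0.000426) and in the shell by 2.67 ± 0.60 (0.000957), or by 4.14 ± 0.40 and 3.81 ± 0.37 without that library. Nab2, a corepressor that Egr proteins induce and that binds them, was higher in the core by 2.25 ± 0.21 (2.53 ± 0.11 without that library), and the effector Arl4d by 1.98 ± 0.14 (1.98 ± 0.15). Without that library the smallest adjusted p of the 31 for core against VTA was that of the kinase Map2k1 (1.54 ± 0.06, edgeR adjusted p = 1.06e-12). The kinase Camk4 was at 2.55 ± 0.12. Those called lower in the core were Cdkn1a, Ier3, Errfi1, Spry4 and Klf4. Nr4a2, a defining factor of dopamine neurons, was lower in the shell than in the VTA (-2.04 ± 0.16, or -2.06 ± 0.17) and higher in the core than in the VTA (0.57 ± 0.21, edgeR adjusted p = 0.0249, or 0.57 ± 0.22). By edgeR none of the 31 was called between crosses, between injections, for cross by injection or for cross by region. Of all tested genes 0% to 0.35% were called in these comparisons.

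Co-variation over rats was taken within each region from Pearson's r of log2 CPM over the 8 rats for the 36 pairs of the 9 genes, 108 pairs in all over the 3 regions, with exact two-sided permutation tests adjusted over these 108. In the NAc core all 36 pairs had a positive r, from 0.20 to 0.97 with a median of 0.66, and 10 passed. The number that passed rested on single rats: it was 1 without rat 1, 2 without rat 4 or rat 11 and 5 to 7 without any other. For comparison, a member and any other tested gene had a median r of 0.005 there, and 4.97% of such pairs reached the median of the members. The pairs within each region share the same 8 libraries and their scaling, and are not independent of one another. As deviations from the means of each cross and injection, 31 of the 36 remained positive with a median of 0.64, a description over 8 values with few degrees of freedom. A single preparation batch held too few rats for a correlation of its own.

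The closest pair in the core was Fos and Egr1, with r = 0.97 (exact permutation p = 0.0005, adjusted p = 0.0098), rho = 0.95 (exact permutation p = 0.0011) and r = 0.96 without the pair of rats farthest from the median. Fos and Egr2 followed with r = 0.95 and Junb and Arc with r = 0.93, both at an adjusted exact permutation p of 0.0098. Fos, though low, tracked the zinc finger genes over rats in the core. Arc was the gene most tied to the rest, with a median r of 0.88 to the other 8. It was in 5 of the 10 passing pairs, with Egr1 (0.92), Nr4a1 (0.91), Egr2 (0.88), Fos (0.88) and Junb. The remaining passing pairs were Egr1 with Egr2 (0.91), Egr1 with Nr4a1 (0.88) and Junb with Egr2 (0.86), the last falling to 0.51 without the pair of rats farthest from the median. Dusp1 had the lowest median r to the others (0.45), followed by Npas4 (0.50) and Fosb (0.57), and none of these 3 was in a passing pair.

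In the NAc shell 29 of the 36 pairs were positive, from -0.46 to 0.97 with a median of 0.46, and 5 passed, or 0 without rat 4, 1 without rat 1, 2 without rat 11 and 3 or 4 without any other. Of pairs of a member with any other gene, 14.3% reached that median. Junb and Arc were again close (r = 0.97, exact permutation p = 0.0001, adjusted p = 0.0080, rho = 0.98, r = 0.93 without the pair of rats farthest from the median). Fosb, outside every passing pair in the core, passed in the shell with Arc (0.95, adjusted exact permutation p = 0.0098) and with Junb (0.89, 0.0289), and the other passing pairs were Egr1 with Arc (0.91) and with Junb (0.85). Fos was apart from the rest in the shell, with a median r of -0.22 to the other genes and a positive r to 1 of 8. Whether r of a pair differs between core and shell was not tested. As deviations from the means of cross and injection the median in the shell was 0.13, with 24 of 36 positive.

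In the VTA the median r was 0.80 with 35 of 36 positive, and 3 pairs passed: Npas4 with Dusp1 (r = 0.91, adjusted exact permutation p = 0.0098), Fosb with Arc (0.86) and Fosb with Egr1 (0.82). The median rested on rat 2. Without it the median r over 7 rats was 0.03 with 19 of 36 positive, and 47.1% of pairs of a member with any other gene reached that median. Among the 3 pairs, r without rat 2 was 0.89 for Npas4 with Dusp1 (exact permutation p = 0.00794, adjusted p = 0.06), 0.81 for Fosb with Arc and 0.67 for Fosb with Egr1. With 7 rats 0 pairs passed. In the core and shell the median without rat 2 was 0.66 and 0.54, with 7 and 4 pairs passing.

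**Figure D3:**
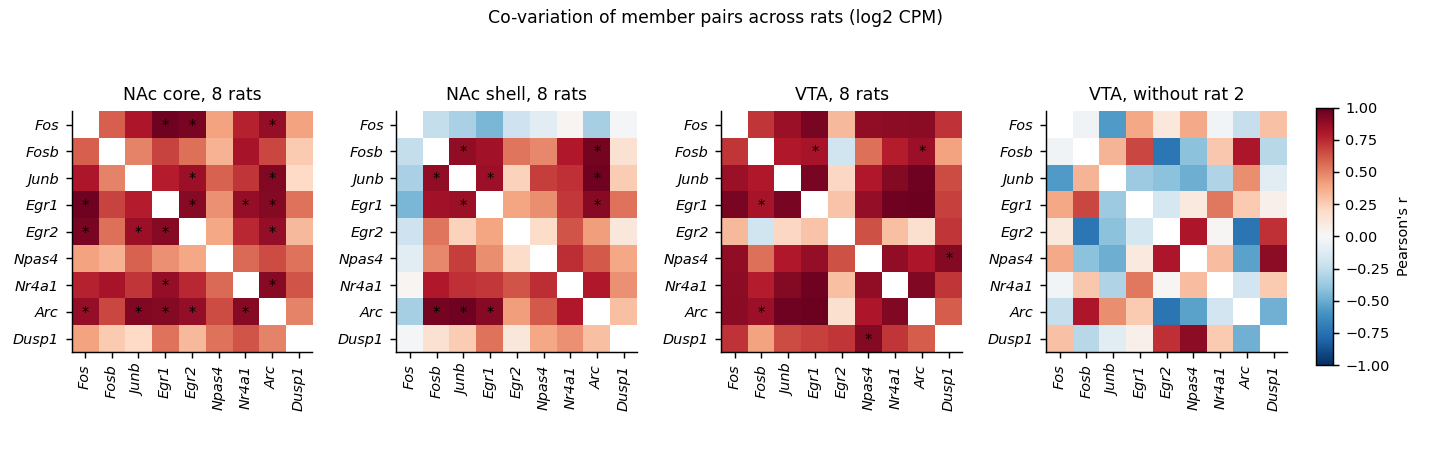
Pearson's r of log2 CPM over rats for each pair of the 9 genes (color scale from -1 to 1) in the NAc core, the NAc shell, the VTA with 8 rats and the VTA without rat 2; an asterisk marks an adjusted exact permutation p under 0.05. The core is positive throughout (median 0.66), the shell has negative values in the Fos row, and the VTA changes from a median of 0.80 to 0.03 when rat 2 is left out.

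The rats behind this pattern can be read from the mean standing of the 9 genes, each expressed in SD from its regional mean. In the core rat 1 stood highest at 1.50, with the highest value of 7 genes, and rat 4 lowest at -1.08, with the lowest value of 5. In the shell the same rats were at the ends, rat 1 at 1.12 with the highest value of 6 genes and rat 4 at -1.18 with the lowest of 6. Both had been injected with nicotine, rat 1 in cross A and batch E and rat 4 in cross B and batch F. In the core the library of rat 1 had the smallest total count of the region and that of rat 4 the largest, 17563458 and 20480697. In the shell the order was the other way, 21666389 for rat 1 and 19297453 for rat 4. The summed striatal neuron markers in the core were second highest in rat 1 (3397 CPM, after 3608 CPM in rat 15) and second lowest in rat 4 (2629 CPM, after 2019 CPM in rat 11). In the shell the summed striatal markers were 2418 CPM in rat 1 and 2157 CPM in rat 4, both above the median of 2102 CPM. There rat 4 had the highest summed oligodendrocyte markers (13213 CPM) and astrocyte markers (2292 CPM) of the region, and rat 1 had 9970 and 1867 CPM. In the core these sums were 10603 and 1726 CPM in rat 4 and 12667 and 1664 CPM in rat 1, against medians of 11064 and 1720 CPM. The part of any of these markers in the standing of the rats was not tested. In the VTA rat 2 stood at 2.06 with the highest value of 8 genes and the other rats between -0.58 and 0.09; among the 7 others alone rat 1 again stood highest, at 0.68.

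**Figure D4:**
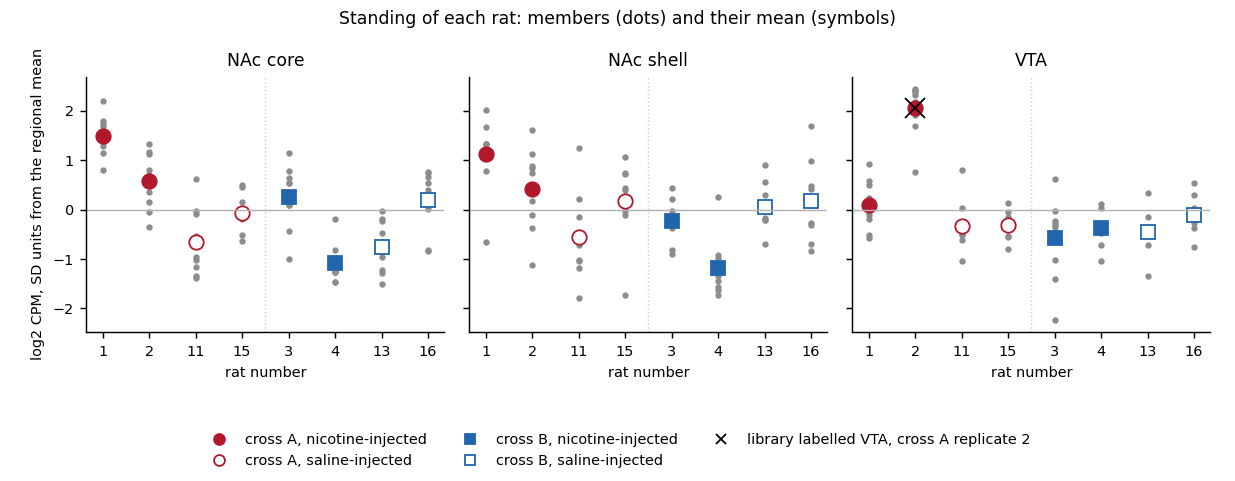
Standing of each rat in each region: small dots give the log2 CPM of each of the 9 genes in SD units from its regional mean, and larger symbols their mean for that rat. Rat 1 is highest and rat 4 lowest in both NAc core (1.50 and -1.08) and NAc shell (1.12 and -1.18), and rat 2 is highest in the VTA (2.06).

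Whether a rat high in one region was also high in another was tested for each gene and pair of regions, 27 relations in all. Between core and shell 8 of 9 genes had a positive r over the 8 rats, with a median of 0.61, and 1 passed: Npas4, with r = 0.94 (exact permutation p = 0.00161, adjusted p = 0.0435) and rho = 0.88 (exact permutation p = 0.00724). With rho in place of r, 0 genes passed after adjustment, and 0 passed when rat 1, 2, 3, 4, 11 or 16 was left out. Arc (0.86, adjusted exact permutation p = 0.0554), Egr1 (0.84, 0.0599) and Junb (0.82, 0.0623) came next and did not pass. Fos had r = -0.13 (exact permutation p = 0.756). Core and shell of a rat also share its cross, injection and preparation batch. The r of other tested genes between regions was not taken, so these values have no background and are not particular to the 9 genes. The median was 0.44 for core with VTA and 0.19 for shell with VTA, or 0.62 and 0.37 without rat 2, and 0 genes passed in either, with or without that rat. The smallest adjusted exact permutation p was 0.0599 and 0.0554.

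The next comparison was between the reciprocal crosses. None of the 9 genes was called in any region by edgeR's quasi-likelihood test, where 0.0184% of all tested genes were called in the core, 0.00614% in the shell and 0% in the VTA. DESeq2 called 0 of the 9 as well. At an unadjusted p under 0.05, 1 of 9 was found in the core, against 9.36% of all tested genes, 0 of 9 in the shell, against 4%, and 2 of 9 in the VTA, against 5.7%. In the core all 9 log2 fold changes (A minus B) were above 0, from 0.08 to 0.68 with a median of 0.22. Without rat 1 this was 7 of 9 with a median of 0.11 and a highest value of 0.31, and without rat 3 the median was 0.36. Npas4 had the largest, 0.68 ± 0.27 (adjusted p = 0.472). Its core levels were 14.4, 5.72, 6.47 and 7.67 CPM in rats 1, 2, 11 and 15 of cross A and 5.55, 4.58, 6.45 and 4.80 CPM in rats 3, 4, 13 and 16 of cross B. The crosses overlapped.

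The estimates were also taken within each injection group. In the core, in the saline-injected rats, which shared 1 preparation batch, 4 of 9 genes had a higher estimate in cross A (median -0.09), while in the nicotine-injected rats, whose crosses were in different batches, all 9 did (median 0.52). In the shell 8 of 9 estimates were above 0 (median 0.19, or 0.13 with 6 of 9 above 0 without rat 1 and 0.12 without rat 4), with 4 of 9 in the saline-injected rats and 8 of 9 in the nicotine-injected (median 0.48). Egr1 is an example. Its shell levels were 101, 109.6, 73.9 and 89.0 CPM in rats 1, 2, 11 and 15 of cross A and 86.8, 72.2, 87.4 and 83.9 CPM in rats 3, 4, 13 and 16 of cross B. In cross A rats 1 and 2 lay well above every rat of cross B, and rat 11 lay below 3 of them. In the VTA all 9 estimates were above 0 with a median of 1.06, and without rat 2 this was 6 of 9 with a median of 0.08 and 0 genes at an unadjusted p under 0.05.

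Between nicotine-injected and saline-injected rats none of the 9 genes was called either, as for 0% of all tested genes in the core, 0% in the shell and 0% in the VTA by edgeR. The genes at an unadjusted p under 0.05 were 1 of 9 in the core, against 6.39% of all tested genes, 0 of 9 in the shell, against 2.95%, and 3 of 9 in the VTA, against 2.03%, the last falling to 0 without rat 2. DESeq2 called 0 of the 9 in each region too. In the core all 9 estimates (nicotine minus saline) were above 0, with a median of 0.27. Without rat 1 this was 6 of 9 with a median of 0.14, and without rat 4 the median was 0.42. Nr4a1 was at 59.5, 44.5, 43.7 and 28.5 CPM in the nicotine-injected rats 1, 2, 3 and 4 and at 31.1, 23.4, 34.3 and 36.3 CPM in the saline-injected rats 11, 13, 15 and 16 (0.49 ± 0.19, adjusted p = 0.766). Rat 4 thus lay among the saline-injected rats and the groups overlapped. Injection and preparation batch cannot be told apart in the NAc, where all saline-injected rats were in batch G and no nicotine-injected rat was.

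In the shell 7 of 9 estimates were above 0, with a median of 0.09. Leaving out 1 rat moved this median between -0.02 (without rat 1, with 4 of 9 above 0) and 0.19 (without rat 4 or rat 15). Fos went the other way, at 2.05, 1.89, 2.24 and 1.96 CPM in the nicotine-injected rats 1, 2, 3 and 4 and 2.87, 2.31, 2.26 and 3.10 CPM in the saline-injected rats 11, 13, 15 and 16. The ranges did not overlap, by a narrow margin and as for 2.07% of all tested genes, and the difference was not called (-0.37 ± 0.21, edgeR adjusted p = 0.999). In the VTA 8 of 9 estimates were above 0 with a median of 1.13, and without rat 2 this was 5 of 9 with a median of 0.05.

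**Figure D5:**
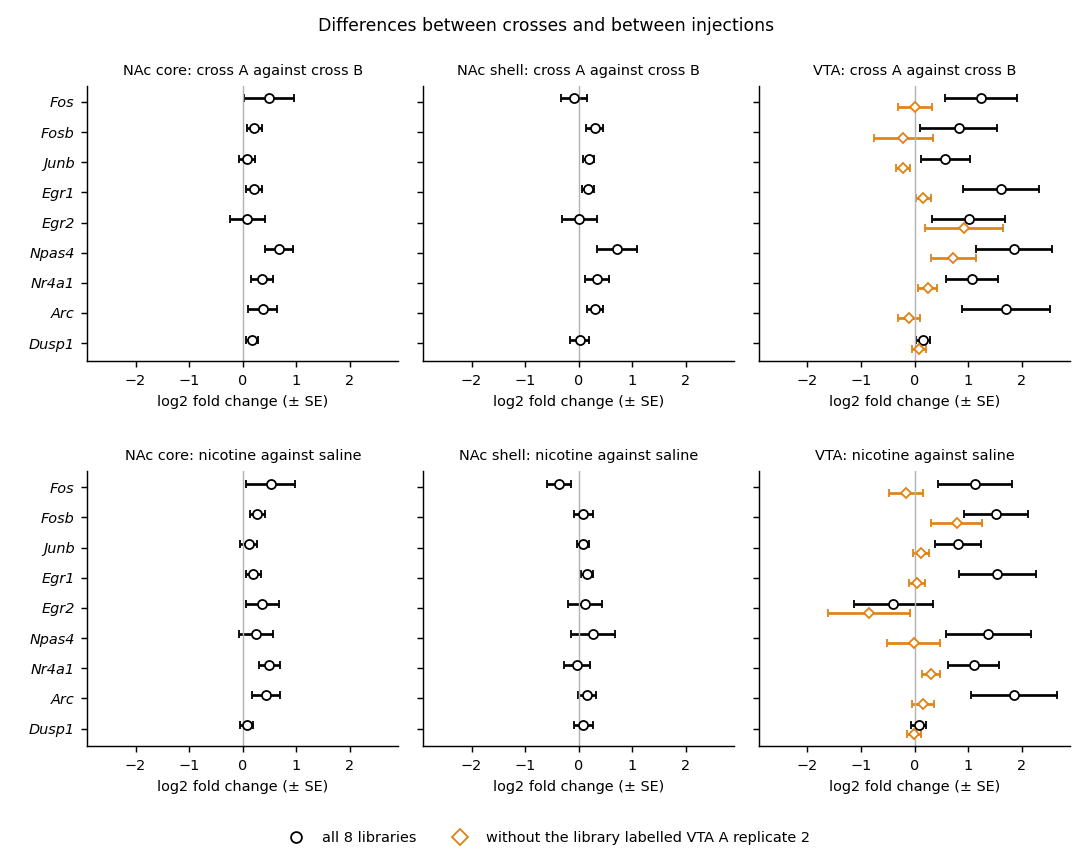
Log2 fold change ± SE of the 9 genes for cross A minus cross B and for nicotine-injected minus saline-injected rats in each region (horizontal axis), with orange symbols for the VTA without the library of rat 2. None has an adjusted p under 0.05, and the VTA median falls from 1.06 to 0.08 for the cross and from 1.13 to 0.05 for the injection without that library.

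Whether the cross difference itself differed by injection was tested with an interaction term, positive where cross A exceeded cross B by more in the nicotine-injected rats, with 2 rats in each combination. By edgeR 0 of the 9 genes were called, against 0.00614% of all tested genes in the core, 0.35% in the shell and 0% in the VTA. At an unadjusted p under 0.05 there were 3 of 9 in each region, against 5.89% of all tested genes in the core, 7.42% in the shell and 5.39% in the VTA. In the shell these were Dusp1, Nr4a1 and Egr1. Dusp1 was at 23 and 24.7 CPM in the nicotine-injected rats of cross A, 17.8 and 15.6 CPM in those of cross B, 18.7 and 13.2 CPM in the saline-injected rats of cross A and 23.6 and 21.1 CPM in those of cross B. The order of the crosses was thus opposite in the injection groups, with an interaction of 0.98 ± 0.24 (edgeR adjusted p = 0.170), which DESeq2, calling 1.38% of all tested genes here, called (adjusted p = 0.037).

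Nr4a1 in the shell was at 47.5 and 30.1 CPM in the nicotine-injected rats of cross A, 22.4 and 17.8 CPM in those of cross B, 23 and 32.7 CPM in the saline-injected rats of cross A and 31.3 and 33.1 CPM in those of cross B (1.15 ± 0.32, edgeR adjusted p = 0.267, DESeq2 adjusted p = 0.0203). In the core the genes were Fos (2.10 ± 0.75), Egr1 (0.60 ± 0.23) and Egr2 (1.26 ± 0.54), with adjusted p of 0.836 or above. Fos was at 3.70 and 3.74 CPM in the nicotine-injected rats of cross A, 2.02 and 0.80 CPM in those of cross B, 0.96 and 1.78 CPM in the saline-injected rats of cross A and 1.45 and 2.97 CPM in those of cross B. In the NAc this interaction and the difference between batches E and F cannot be told apart. In the VTA the genes were Npas4, Fos and Dusp1, and without rat 2, which leaves 1 rat in that combination, 1 gene was at an unadjusted p under 0.05, against 9.13% of all tested genes. None of the 9 genes was called by edgeR or DESeq2, and 0 had an unadjusted p under 0.05, for a cross difference that differed between regions. Without the library labelled VTA of rat 2 none was called by edgeR, and Junb had an unadjusted p under 0.05 for shell against VTA (0.42 ± 0.16, edgeR adjusted p = 0.776). The shares of all tested genes called by edgeR were 0% for core against shell, 0% for core against VTA and 0% for shell against VTA.

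Finally, the genes most like the 9 were ranked by their mean r with them over the 23 libraries other than the library labelled VTA of rat 2, each value taken from its regional mean. The first 8 had a mean r of 0.52 to 0.55, led by ENSRNOG00000002436 (0.55) and ENSRNOG00000011951 (0.54), and included Lamtor5, a subunit of the complex that anchors mTORC1 signaling at the lysosome (0.52), and Pdk3, a kinase of the pyruvate dehydrogenase complex (0.52). Among the 9 themselves the mean r with the other 8 was highest for Egr1 (0.55), Nr4a1 (0.53) and Arc (0.52) and lowest for Fosb (0.21) and Egr2 (0.18). Tested genes outside the 9 with a higher mean r numbered 1 for Egr1, 3 for Nr4a1, 6 for Arc and 62 for Junb. They numbered 267 for Fos, 305 for Npas4, 858 for Dusp1, 2223 for Fosb and 2834 for Egr2. Of the 31 activity-regulated genes Ier5, an early response gene (0.48), Arl4d (0.46) and Cebpb, a transcription factor (0.45), came nearest, at ranks 13, 28 and 43. These values share libraries and scaling and are a description.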

How the data were processed

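Libraries were grouped by the labels (region, cross, injection, batch, rat). Per the study's methods, the authors trimmed reads with fastp 0.20.0, quantified them with Salmon 0.12.0 against Rnor 6 and summed transcripts to genes with tximport; they deposited estimated counts per gene, already rounded, without normalization. Salmon shares reads between near-identical sequences by estimation. Genes with a normalized count over 10 in at least 3 of 24 libraries were tested (16289 of 17323). Tests were edgeR 4.0.16 quasi-likelihood (R 4.3.3, TMM, Benjamini-Hochberg over all tested genes, two-sided). Alternatives were DESeq2 1.42.0, other scalings and filters, covariates, rat as a block and each rat left out. Log2 CPM used a prior count of 2. The 9 genes, lists and tests were chosen with earlier results of these data known. No Ensembl identifier matched the reference gene table; names of other genes came from identifier and symbol pairs in the study's tables. Named were all 9 genes, some of the called list genes as examples and those with a name among the 8 most like.

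Libraries pair by the shared rat. Correlations of their deviations from group means were -0.11 to 0.12 (core and shell), -0.01 to 0.18 (core and VTA) and -0.07 to 0.13 (shell and VTA). The 36 replicate pairs had chi-square values of 5.16 to 127 per degree of freedom, so none was a copy.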

Additional observations from a re-analysis of the deposited data

Results flagged for a closer look

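In groups of 4 libraries of 1 region and cross, 8 of 54 comparisons of gene and group had 1 library far from the other 3 by Dixon's ratio, where chance gives about 1 in 20, or 2.7; the genes are not independent, and 6 of the 8 came from 1 library. That library was the one labelled VTA of rat 2 (cross A), which held 14.8 CPM of Fos, 41.0 CPM of Junb, 78.6 CPM of Egr1, 85.3 CPM of Arc, 11.5 CPM of Npas4 and 38.7 CPM of Nr4a1. The other 3 VTA libraries of cross A held 1.81 to 2.75 CPM of Fos, 8.21 to 10.9 CPM of Egr1 and 6.82 to 8.32 CPM of Arc. Its dopamine neuron marker sum was 44.5 CPM against 1045 to 1971 CPM in the other VTA libraries, and the part of this in its levels was not tested.

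Npas4 was at 14.2 CPM in the NAc shell of rat 1 (cross A), against 4.55 to 6.03 CPM in the other 3 rats of that cross. Fosb was at 15.8 CPM in the NAc core of rat 3 (cross B), against 10.7 to 11.5 CPM in the others.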

How the results depend on the processing

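For single genes, none of the values recomputed under the alternatives changed sign after being called. Of 396 values between regions 370 kept their side of the threshold, 16 lost a call and 10 gained one; all 486 for the cross, all 405 for the injection and all 396 for cross by region kept theirs, and 8 of 351 for cross by injection gained a call. With rat as a replicate block 4 genes were called between core and shell, 7 between core and VTA and 7 between shell and VTA, against 3, 7 and 5 without it, where the block called 16.7%, 59.8% and 58.2% of all tested genes, and 0 for cross by region. For cross by injection DESeq2 called 2 genes in the shell (1.38% of all tested genes). The other calls gained for cross by injection came from fits that leave 1 rat in a combination of cross and injection. In the VTA they came without rat 1, which leaves the library labelled VTA of rat 2 alone in its combination. Between regions 15.1%, 61.8% and 59.8% of all tested genes were called with all rats (core and shell, core and VTA, shell and VTA). Leaving out 1 rat gave 1 to 3, 5 to 7 and 5 to 7 of the 9 genes there. Passing pairs ranged from 1 to 7 in the core, 0 to 4 in the shell and 0 to 2 in the VTA, where 7 rats also limit the exact test, with median r of 0.536 to 0.753, 0.256 to 0.631 and 0.0319 to 0.859. Genes related between regions ranged from 0 to 2 for core and shell and 0 to 1 for each region with the VTA. With Spearman's rho the VTA median was 0.238 and 0 genes were related between core and shell; as deviations from cross and injection means the shell median was 0.130. The causes were not tested. Depth limits the genes of lowest count most, with as few as 1 count of Egr2, 9 of Fosb, 15 of Npas4 and 16 of Fos in a library.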
